A study of Mus musculus with 6 samples.

Results

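The small leucine-rich proteoglycans are secreted matrix proteins, and 10 of their genes (Dcn, Lum, Bgn, Fmod, Ogn, Aspn, Prelp, Omd, Podn and Ecm2) were followed here in cultured mouse dermal fibroblasts. The members were found by exact match of the gene symbol, which gave 10 single-gene rows of 46958 rows in the expression table. Messenger RNA was measured in 6 libraries. The wild type (RORγ+/+) and the knockout as labelled (RORγ-/-) of the nuclear receptor RORγ each contributed 3 libraries, 1 for each of the sterols 20(OH)L3, 20(OH)Cholesterol and 20(OH)7DHC. These are 20-hydroxylated forms of lumisterol, cholesterol and 7-dehydrocholesterol, and each was given at 100 nM for 24 h in 0.1% ethanol and medium with 10% charcoal-stripped serum. The fibroblasts came from the dermis of mice 1 to 2 days old, cells of several mice were pooled, and cultures were used at early passage. All 6 libraries had received a sterol, and no untreated or ethanol library is used here. No genotype had a second library under the same sterol, so the 3 sterols stood as the repeats of a genotype. Nothing states that the 3 libraries of a genotype came from separate pools of cells, and the p-values measure only the spread between these libraries.

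Small leucine-rich proteoglycans have a core of leucine-rich repeats that is curved like an arch, and many carry chondroitin, dermatan or keratan sulfate chains. In skin they bind the surface of collagen fibrils and govern how the fibrils join and how wide they grow. Several also bind growth factors of the transforming growth factor beta family, and core proteins set free from the matrix can engage Toll-like receptors. Decorin (Dcn), biglycan (Bgn), asporin (Aspn) and Ecm2 are grouped in class I by sequence. Lumican (Lum), fibromodulin (Fmod), Prelp and osteomodulin (Omd) are placed in class II, osteoglycin (Ogn) in class III, and podocan (Podn) in a class of less typical members.

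Values are FPKM, a fragment count scaled by transcript length and by library depth, and so compare genes per length. The files do not state the depth. It was estimated at 12500000 to 13100000 fragments in the wild type libraries and 7800000 to 13200000 in the libraries labelled knockout, where 1 fragment on a transcript of 1 kb is worth 0.0935 to 0.162 FPKM. Over 12673 rows, wild type libraries correlated with each other at r = 0.944 to 0.95 on the log2 scale. The 20(OH)7DHC library labelled knockout stood apart from the other 2 of its genotype (r = 0.884 to 0.898, against 0.934 between those), so the calls on members, cluster neighbours and listed genes are also given without it. In the 20(OH)L3 and 20(OH)Cholesterol libraries labelled knockout, transcripts under 1 kb read higher than in wild type (median log2 difference 0.57 and 0.48) and those over 6 kb lower (-0.37 and -0.40), which was not seen with 20(OH)7DHC (0 and 0.02). The members' longest coding transcripts measure 1758 to 3615 nt. Decorin, at 1758 nt, is in the class of 1 to 2 kb, where the medians were 0.45, 0.38 and 0.02. In the class of 2 to 4 kb, which holds the other members, the medians were -0.06, -0.07 and -0.02.

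In the libraries labelled knockout, decorin fell from a mean of 1297 FPKM to 14.5, and asporin, Prelp, fibromodulin, lumican and osteoglycin fell with it. Biglycan, the most abundant member, read lower by 1.69-fold in the means without passing the test, and podocan also did not pass. Of the 10 members, 8 reached a mean of 1 FPKM and were tested, 6 fell and 0 rose, in limma on log2(FPKM + 1) with Benjamini-Hochberg adjustment over all 12673 rows at 0.05. Over all rows tested, 6.64% were called lower and 2.43% higher. The median log2 difference of the 8 tested members was -3.14, and that of all rows was 0. Lum, Ogn, Fmod and Podn reached the minimum mean of 1 FPKM only through wild type, with means labelled knockout of 0.0362, 0.0951, 0.888 and 0.721 FPKM. In the fit without that minimum, Lum and Ogn passed, and Fmod and Podn did not. In 9 of the 10 members, every library labelled knockout read below every wild type library, as did 17.4% of the 23461 rows above 0 in any library. The number of members that fell was 3 (Dcn, Aspn and Prelp) without the wild type 20(OH)Cholesterol library, 3 (again Dcn, Aspn and Prelp) without the 20(OH)Cholesterol library labelled knockout, 5 (all but Fmod) without the 20(OH)L3 library labelled knockout, 4 without the wild type 20(OH)L3 library (Dcn, Lum, Ogn and Aspn), and 6 without the 20(OH)7DHC library labelled knockout.

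**Figure D1:**
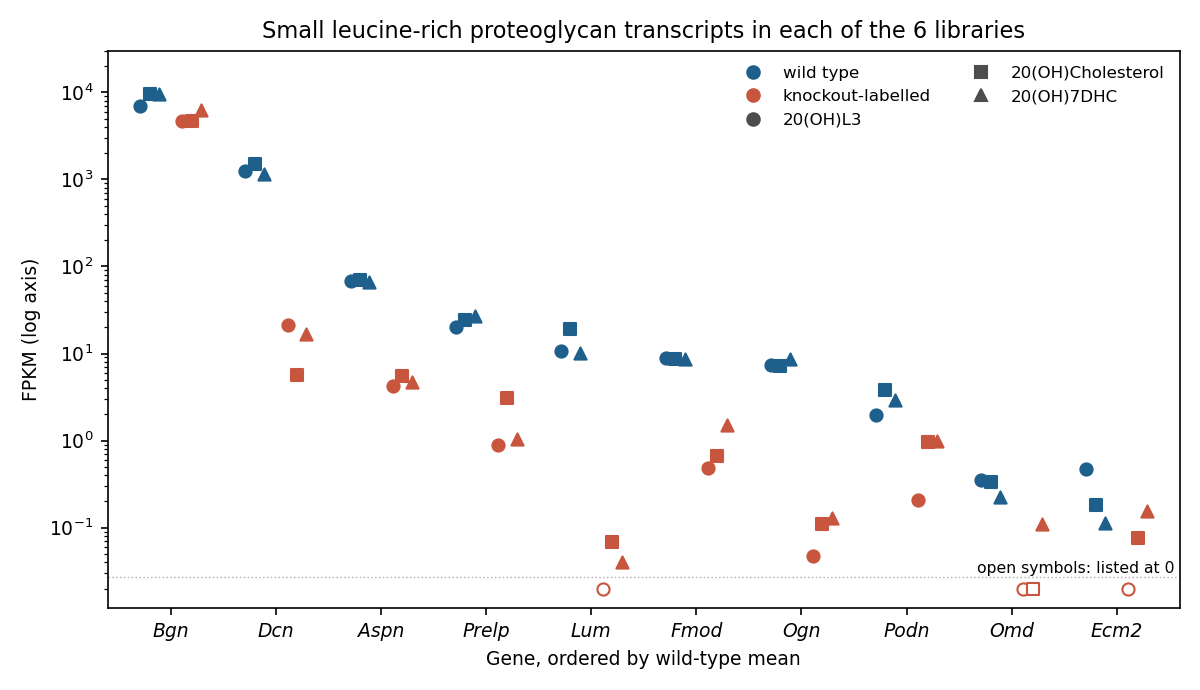
Expression of each of the 10 small leucine-rich proteoglycan genes in FPKM on a log axis, 1 point per library, with wild type and knockout-labelled libraries shown apart and the sterols told apart by marker. Decorin sits between 1148 and 1489 FPKM in wild type and between 5.74 and 21.2 in the libraries labelled knockout, whereas the biglycan values lie close together.

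Among the class I members, decorin binds type I collagen fibrils and is the best known regulator of their width in skin. Dcn lies on chromosome 10 (97479609 to 97518143, plus strand, 8 exons, GENCODE M21 on GRCm38). In the order 20(OH)L3, 20(OH)Cholesterol, 20(OH)7DHC, which is kept for all values below, wild type read 1254, 1489 and 1148 FPKM, and the libraries labelled knockout read 21.2, 5.74 and 16.6 FPKM. No values overlapped, and the lowest wild type value was 54.2 times the highest value labelled knockout. The means were 1297 ± 175 and 14.5 ± 7.94 FPKM (SD, n = 3 libraries each), so the libraries labelled knockout held 1.12% of the wild type level. The log2 difference was -6.55 (SE 0.439, 95% interval -7.67 to -5.42, limma adjusted p = 0.00344), and it ranked 12th from the lowest of the 12673 rows. Within a sterol, where each side is 1 library and no test exists, wild type stood 59.2-fold higher with 20(OH)L3, 259-fold with 20(OH)Cholesterol and 69.0-fold with 20(OH)7DHC.

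Asporin, which shares the decorin type of core, has a run of aspartates near its start and binds collagen and transforming growth factor beta. Aspn lies on chromosome 13 (49544443 to 49567565, plus strand, 8 exons). It read 68.3, 69.4 and 66.1 FPKM in wild type and 4.29, 5.51 and 4.68 FPKM in the libraries labelled knockout. Both groups were tight, and they lay far apart. The means were 67.9 ± 1.67 and 4.83 ± 0.623 FPKM (SD, n = 3 each), a 14.1-fold difference, with a log2 difference of -3.57 (SE 0.179, limma adjusted p = 0.00161). By sterol the log2 differences were -3.71, -3.44 and -3.56.

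Biglycan, the closest relative of decorin, usually carries a pair of chondroitin or dermatan sulfate chains where decorin carries a lone one. Bgn lies on the X chromosome (73483602 to 73495933, plus strand, 8 exons). It read 7017, 9545 and 9645 FPKM in wild type, where it ranked between the 6th and the 9th highest of all rows in a library. It read 4645, 4724 and 6181 FPKM in the libraries labelled knockout, at ranks 28, 20 and 8. Wild type lay above throughout, but the highest value labelled knockout lay close under the lowest of wild type. The means were 8735 ± 1489 and 5183 ± 865 FPKM (SD, n = 3 each), and the log2 difference of -0.75 did not pass (SE 0.427, 95% interval -1.85 to 0.35, limma adjusted p = 0.272). After quantile normalization the difference was -1.22, with a limma adjusted p of 0.0574, and over all alternatives the adjusted p ran from 0.0574 to 0.729.

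Ecm2, a larger relative known in humans from fat and female reproductive tissue, was near the detection limit. Ecm2 (chromosome 13, 49504810 to 49532789, plus strand) read 0.467, 0.180 and 0.112 FPKM in wild type and 0, 0.0758 and 0.154 FPKM in the libraries labelled knockout. The groups overlapped, and with 20(OH)7DHC the library labelled knockout was the higher. Ecm2 missed the minimum of 1 FPKM, and in the fit of all 23461 rows its log2 difference was -0.21 (limma adjusted p = 0.462).

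Among the class II members, lumican carries keratan sulfate in the cornea and helps to set the width of collagen fibrils in skin and cornea. Lum lies on chromosome 10 (97565128 to 97572703, plus strand, 3 exons). It read 10.7, 19.3 and 10.2 FPKM in wild type and 0, 0.0687 and 0.04 FPKM in the libraries labelled knockout. All wild type values were the higher, and each value labelled knockout was worth at most 1 fragment after rounding. In the 20(OH)L3 library labelled knockout, the 0 allows up to 0.147 FPKM, the worth of 3 fragments. Summed over libraries, an estimated 1170 fragments in wild type stood against 2 in the libraries labelled knockout, a ratio of 456 after correction for depth (exact 95% interval 126 to 3771, for counting error only). The log2 difference was -3.74 (SE 0.274, limma adjusted p = 0.00445) with a pseudocount of 1 and -6.60 with 0.1, since the pseudocount sets the size of a change that ends near 0.

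Fibromodulin shares a collagen binding site with lumican and promotes cross-linking of fibrils in tendon. Fmod (chromosome 1, 134037254 to 134048277, plus strand, 3 exons) read 8.77, 8.70 and 8.61 FPKM in wild type and 0.489, 0.662 and 1.51 FPKM in the libraries labelled knockout. The wild type values were nearly the same (8.69 ± 0.0777 FPKM, SD, n = 3), the others spread more (0.888 ± 0.548 FPKM), and the groups did not overlap. The log2 difference was -2.40 (SE 0.261, limma adjusted p = 0.0106). It missed the threshold in 6 of 20 alternatives (limma adjusted p up to 0.117), among them the fit without a filter on low rows (adjusted p = 0.0656).

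Prelp, named for its proline and arginine-rich end, anchors collagen to the heparan sulfate chains of basement membranes. Prelp (chromosome 1, 133910304 to 133921414, minus strand, 3 exons) read 19.9, 24.0 and 27.1 FPKM in wild type and 0.883, 3.05 and 1.04 FPKM in the libraries labelled knockout. The groups did not overlap, and the 20(OH)Cholesterol library was the highest of those labelled knockout. The means were 23.7 ± 3.62 and 1.66 ± 1.21 FPKM (SD, n = 3 each), with a log2 difference of -3.30 (SE 0.284, limma adjusted p = 0.00644). The antisense gene Gm15851 shares 350 nt of exon with Prelp, whose longest coding transcript measures 3615 nt. Without a stated strand setting, reads in the shared stretch cannot be told apart. Gm15851, named after its value was seen, was lower too (log2 -2.85, limma adjusted p = 0.00815).

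Osteomodulin, a keratan sulfate proteoglycan of bone, was barely present. Omd (chromosome 13, 49582462 to 49592822, plus strand) read 0.351, 0.338 and 0.224 FPKM in wild type and 0, 0 and 0.111 FPKM in the libraries labelled knockout. These values were worth an estimated 9, 9 and 6 fragments against 0, 0 and 3, a ratio of 6.24 after correction for depth (exact 95% interval 1.89 to 32.4, for counting error only). Here too the groups lay apart, but Omd missed the minimum of 1 FPKM, and in the fit of all rows the log2 difference of -0.33 did not pass (limma adjusted p = 0.166).

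Osteoglycin, of class III, is also called mimecan and is found in many connective tissues. Ogn (chromosome 13, 49608046 to 49624501, plus strand, 7 exons) read 7.42, 7.11 and 8.61 FPKM in wild type and 0.047, 0.110 and 0.128 FPKM in the libraries labelled knockout. The groups lay far apart, and the values labelled knockout were worth an estimated 1, 2 and 4 fragments. The log2 difference was -2.99 (SE 0.245, limma adjusted p = 0.00576) with a pseudocount of 1 and -5.34 with 0.1, and the depth-corrected ratio of fragments was 78.8 (exact 95% interval 38.0 to 197, for counting error only).

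Podocan binds type I collagen and is known for slowing the growth of smooth muscle cells. Podn (chromosome 4, 108014791 to 108096445, minus strand, 13 exons) read 1.99, 3.81 and 2.91 FPKM in wild type and 0.209, 0.959 and 0.993 FPKM in the libraries labelled knockout. The groups did not overlap, and the lowest wild type value was 2.0 times the highest value labelled knockout. The log2 difference of -1.19 did not pass (SE 0.272, 95% interval -1.89 to -0.49, limma adjusted p = 0.0605). It passed without the intensity trend (adjusted p = 0.0382) and without the sterol term (adjusted p = 0.0471).

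**Figure D2:**
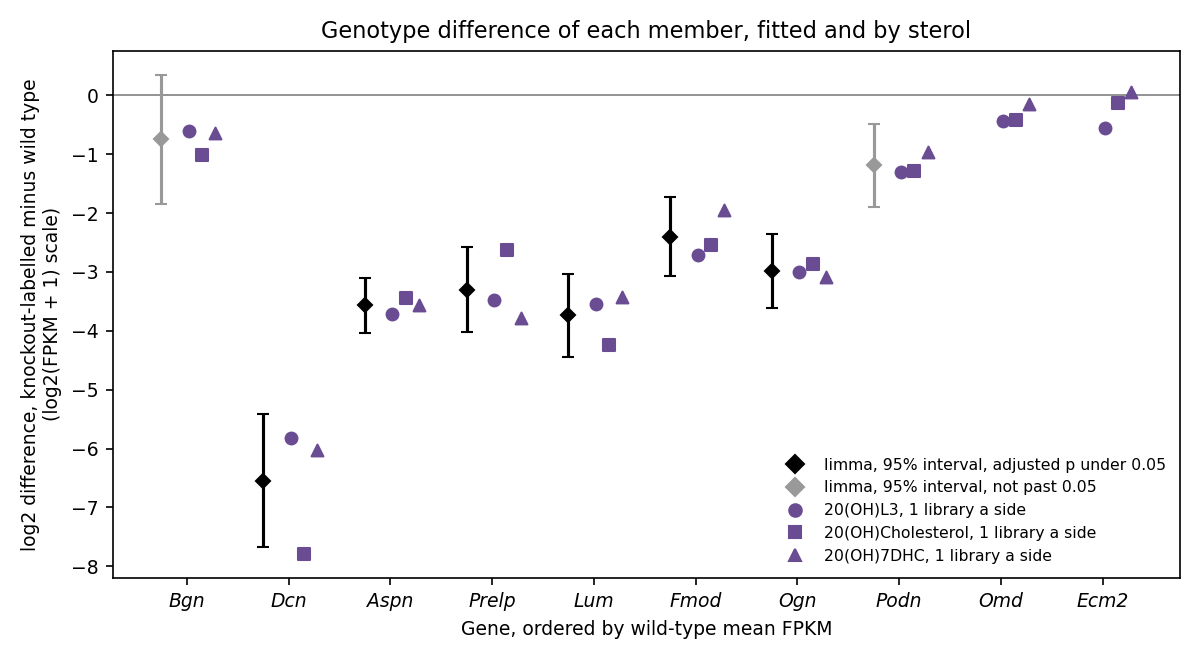
Log2 difference of each member, knockout-labelled minus wild type, on the log2(FPKM + 1) scale. Points show the 3 sterols, and the estimate of limma is drawn with its 95% interval for the 8 tested members. All tested members lie below 0, with decorin lowest at -6.55, and the interval of biglycan crosses 0.

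The make-up of the family by FPKM differed between the genotypes. Summed over the 10 members, wild type libraries held 8389, 11167 and 10917 FPKM and the libraries labelled knockout 4672, 4740 and 6206. The FPKM of all rows added up to 1775205 and 1597788 in the 20(OH)L3 and 20(OH)Cholesterol libraries labelled knockout and to 866528 to 931596 in the other 4 libraries. Per 1000000 FPKM of the whole table, the members summed to 9290, 12499 and 12598 in wild type and to 2632, 2967 and 6662 with the knockout label, so the size of the difference depends on the scale, and every sum labelled knockout lay below every wild type sum on both. Biglycan made up 83.6%, 85.5% and 88.3% of the wild type sums and 99.4%, 99.7% and 99.6% of the sums labelled knockout. The share of decorin was 15.0%, 13.3% and 10.5% in wild type and 0.453%, 0.121% and 0.268% in the others. Thus the groups overlapped in neither share. The ratio of biglycan to decorin, which no scaling of a whole library can alter, was 5.59, 6.41 and 8.40 in wild type and 219, 823 and 371 in the libraries labelled knockout. Without biglycan, the other 9 members together read 1372, 1622 and 1272 FPKM in wild type and 27.1, 16.2 and 25.3 FPKM in the libraries labelled knockout.

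**Figure D3:**
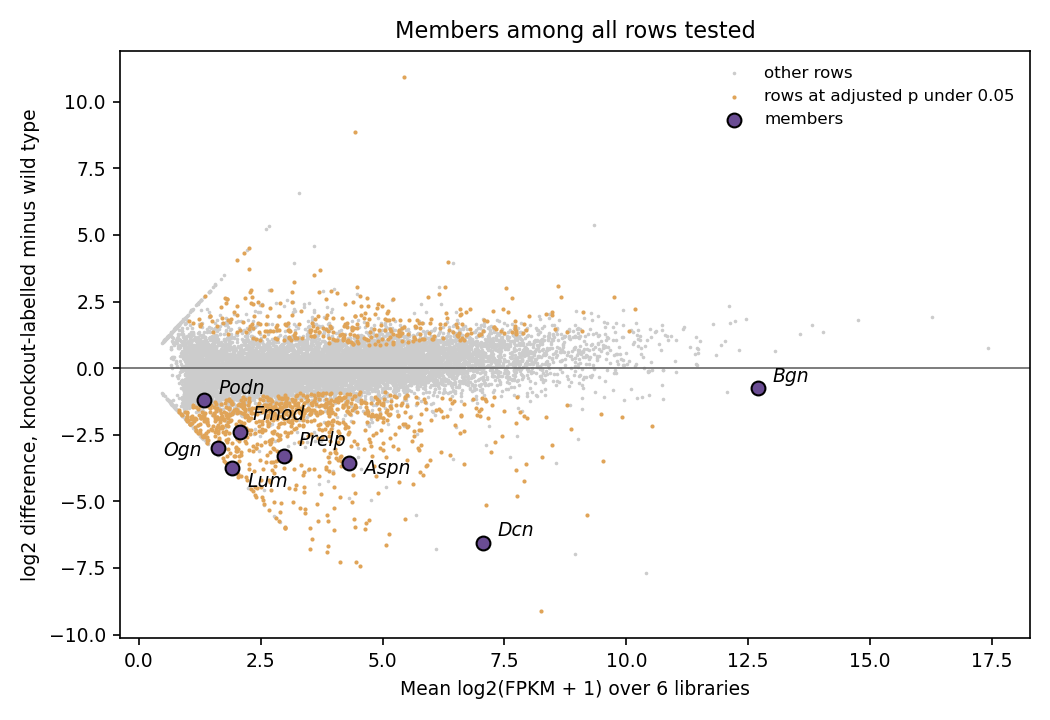
Mean expression against log2 difference, knockout-labelled minus wild type, for the 12673 rows tested, with the 8 tested members marked by name. Decorin lies at the lower edge among abundant rows, and biglycan is the most abundant member and sits near the bulk of the rows.

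The 3 sterols share their hydroxyl group at carbon 20 and their dose, and differ in the sterol they derive from. Lumisterol is a stereoisomer of 7-dehydrocholesterol, which has a ring double bond that cholesterol lacks. No member passed in any of the 3 sterol contrasts, over both genotypes, and the 8 tested members gave 24 comparisons. Over all rows, limma called 0 rows for 20(OH)L3 against 20(OH)Cholesterol (0%), 5 for 20(OH)L3 against 20(OH)7DHC (0.0395%) and 5 for 20(OH)Cholesterol against 20(OH)7DHC (0.0395%). At an unadjusted p under 0.05 there were 242, 482 and 221 rows, and 0 members in each. The smallest unadjusted p among the members was 0.0921, for Podn with 20(OH)L3 minus 20(OH)Cholesterol (log2 -0.69, 95% interval -1.54 to 0.16, limma adjusted p = 1). For Dcn the same contrast was 0.74 (95% interval -0.64 to 2.11). For Aspn, the member measured most tightly, the intervals of the contrasts were -0.72 to 0.40, -0.59 to 0.53 and -0.43 to 0.69. Intervals as wide as these do not show that the sterols act alike.

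Of the 10 members, 8 lie in gene clusters, which the choice of members did not use. On chromosome 10, Dcn and Lum are neighbours on the plus strand, with starts 85519 nt apart, and both fell. Keratocan (Kera), a cornea member next to Lum, was listed at 0 in all 6 libraries. On the other side, Btg1, an antiproliferative gene whose start lies at -862603 nt from that of Dcn, fell from 13.1 ± 1.3 to 5.17 ± 0.778 FPKM (SD, n = 3 each; log2 difference -1.20, limma adjusted p = 0.0308).

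On chromosome 1, Prelp and Fmod start on opposite strands and lie between opticin (Optc), an eye member of the family, and Btg2. Optc read 2.31 ± 0.175 FPKM in wild type and 1.06 ± 0.531 FPKM in the libraries labelled knockout, and did not pass (log2 -0.72, limma adjusted p = 0.157). Btg2, an antiproliferative relative of Btg1, fell from 113 ± 14.3 to 21.5 ± 4.59 FPKM (log2 difference -2.35, limma adjusted p = 0.0101). Without the 20(OH)7DHC library labelled knockout, Btg1 (limma adjusted p = 0.0399) and Btg2 (0.0299) still passed, and over the 6 fits that leave out 1 library their highest adjusted p values were 0.235 and 0.115.

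On chromosome 13, Ecm2, Aspn, Omd and Ogn follow each other on the plus strand within 120 kb, all inside the centromere gene Cenpp on the minus strand. Cenpp read 1.80 ± 0.273 FPKM in wild type and 1.43 ± 1.16 FPKM in the libraries labelled knockout (log2 -0.30, limma adjusted p = 0.54). It shares 7 nt of exon with Aspn and none with the other members. The next gene, the ribosome biogenesis gene Nol8, read 5.14 ± 0.341 and 5.99 ± 1.03 FPKM (log2 0.18, limma adjusted p = 0.581). Tes3-ps, on the other side, read 0 to 0.237 FPKM in wild type and 0 to 0.149 FPKM in the libraries labelled knockout. Neither Cenpp nor Nol8 passed, where Aspn and Ogn fell.

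**Figure D4:**
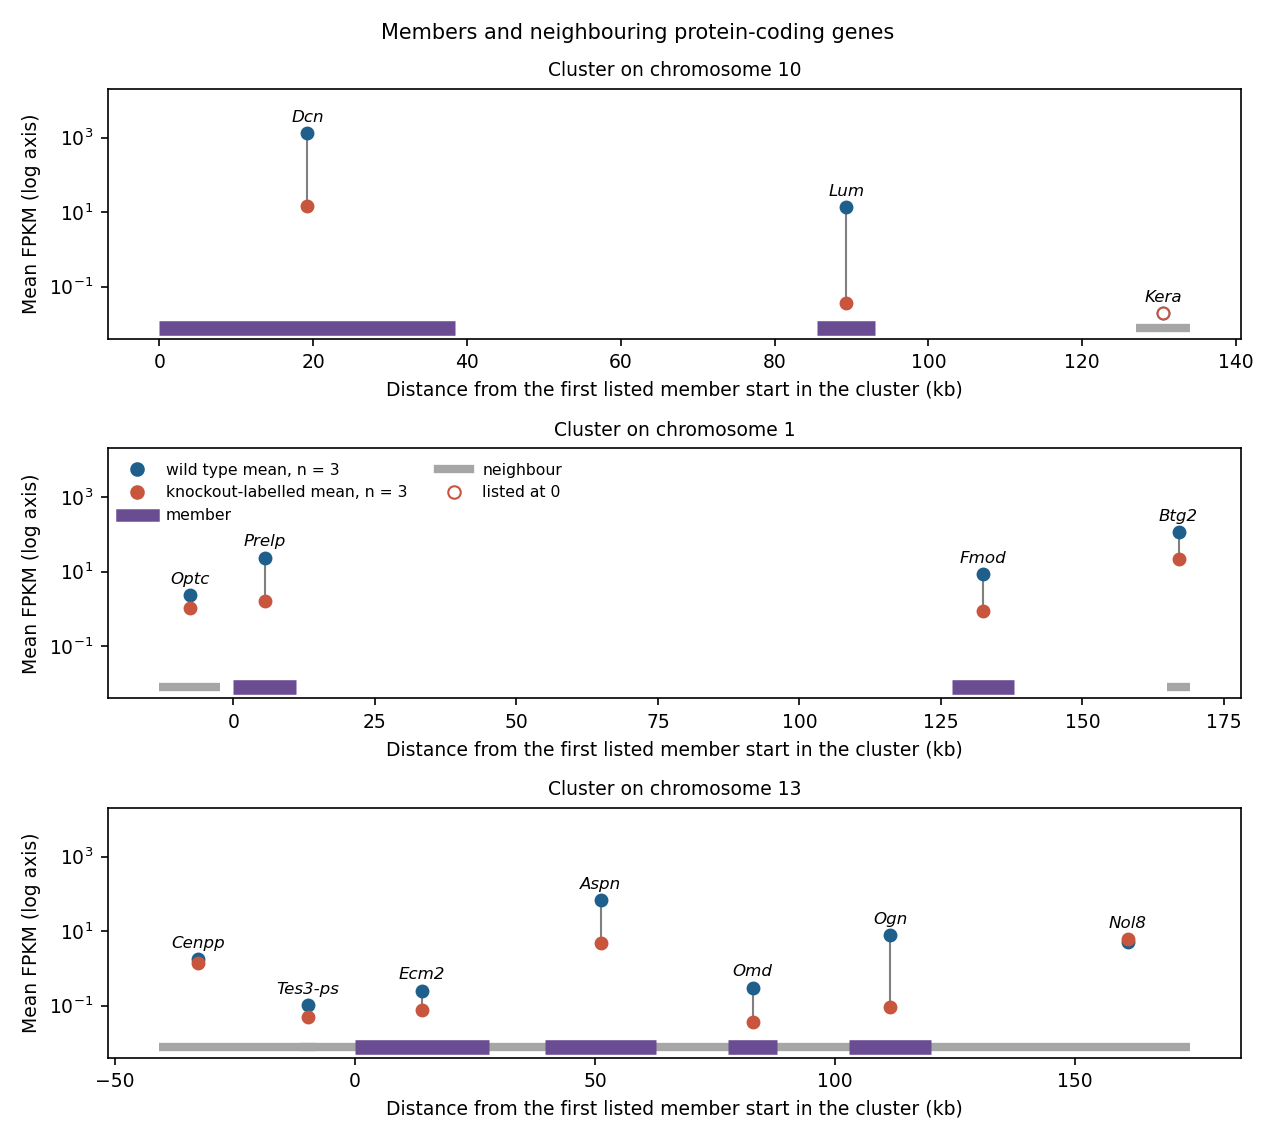
The 3 gene clusters drawn to scale in kb from the first member, with bars for gene positions and points for the mean FPKM of wild type and knockout-labelled libraries (n = 3 each) on a log axis. Kera is listed at 0, Btg1 lies outside the drawn range, and in the chromosome 13 cluster the points of Aspn and Ogn are far apart while those of Cenpp and Nol8 nearly coincide.

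The 250 bases before the start of transcription were read from RefSeq (GRCm38.p6) for the members whose levels bear on the comparison, so that biglycan, which did not pass, can be set beside members that fell. The windows are chrX:73483351-73483600 (plus strand), chr1:134037004-134037253 (plus), chr13:49607765-49608014 (plus), chr13:49544193-49544442 (plus) and chr1:133921402-133921651 (minus), written 5′ to 3′ on the gene's strand. Of the 10 members, 8 are in that table, and Dcn and Lum, which fell, are not. Capitals mark a match, on either strand and allowing overlap, to AGGTCA (the core bound by nuclear receptors such as RORγ), to TATAAA (the TATA box), to CCAAT (the box of that name), to GGGCGG (the core of Sp1 sites) or to TGANTCA (the AP-1 element).
Bgn: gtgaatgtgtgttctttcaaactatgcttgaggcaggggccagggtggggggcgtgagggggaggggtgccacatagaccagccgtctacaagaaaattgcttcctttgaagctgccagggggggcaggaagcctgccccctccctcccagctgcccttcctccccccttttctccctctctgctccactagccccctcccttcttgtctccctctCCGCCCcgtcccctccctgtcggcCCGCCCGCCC
Fmod: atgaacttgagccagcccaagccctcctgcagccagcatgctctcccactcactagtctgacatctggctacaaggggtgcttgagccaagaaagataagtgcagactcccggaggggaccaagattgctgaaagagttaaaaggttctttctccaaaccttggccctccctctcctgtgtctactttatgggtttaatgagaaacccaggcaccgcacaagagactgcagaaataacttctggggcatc
Ogn: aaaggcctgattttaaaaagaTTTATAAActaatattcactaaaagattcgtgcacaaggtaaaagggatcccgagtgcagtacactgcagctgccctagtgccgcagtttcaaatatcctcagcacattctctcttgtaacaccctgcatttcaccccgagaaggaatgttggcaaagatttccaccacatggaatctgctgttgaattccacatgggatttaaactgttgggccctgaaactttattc
Aspn: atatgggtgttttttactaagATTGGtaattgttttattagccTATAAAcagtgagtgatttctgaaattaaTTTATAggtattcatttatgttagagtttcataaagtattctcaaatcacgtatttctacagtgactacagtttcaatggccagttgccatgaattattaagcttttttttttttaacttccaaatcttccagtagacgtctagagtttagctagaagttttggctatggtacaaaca
Prelp: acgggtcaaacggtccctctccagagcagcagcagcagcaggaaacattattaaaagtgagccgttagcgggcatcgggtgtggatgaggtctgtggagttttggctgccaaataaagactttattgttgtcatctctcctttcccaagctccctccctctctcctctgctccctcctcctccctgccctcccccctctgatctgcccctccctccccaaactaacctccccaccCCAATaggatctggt
The Bgn window holds 3 matches to GGGCGG and has 64.4% G and C, against a median of 52.4% over 32851 mouse promoter windows. The Aspn window has 30.0% G and C, with 2 matches to TATAAA and 1 to CCAAT, and the Ogn window has 42.0%, with 2 matches to TATAAA that overlap. The Prelp window holds 1 CCAAT (55.6% G and C), and the Fmod window none of the motifs (51.2%). AGGTCA is in none of these windows, and it is in 14.0% of all promoter windows of the same length. Elsewhere in the family it occurs once in the Omd window and once in 1 of the 2 Podn windows. GGGCGG is not particular to Bgn, with 2 matches in the other Podn window (78.0% G and C) and 1 in the Ecm2 window (40.0%). Of all windows, 12.4% hold TATAAA, 33.8% CCAAT, 32.7% GGGCGG and 6.75% TGANTCA. A match is a description of letters and not a binding site.

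Collagens are the main binding partners of these proteoglycans. Of 13 collagen partner genes, 10 were tested, 5 fell and 0 rose, with a median log2 difference of -1.26 against 0 over all rows. For this and each list below, the shares of all tested rows to compare with are 6.64% lower and 2.43% higher. Col6a2, a chain of the type VI collagen that biglycan and decorin bind, read 23.8, 34.8 and 26.6 FPKM in wild type and 0.968, 1.69 and 0.871 FPKM in the libraries labelled knockout. The groups lay far apart (log2 -3.76, limma adjusted p = 0.00161). Its partner chain Col6a1 fell by 3.14 on the log2 scale (48.0 ± 8.83 to 5.01 ± 3.22 FPKM, limma adjusted p = 0.00509). The chains of type I collagen, the main fibril of dermis, fell too, Col1a2 from 977 ± 91.2 to 110 ± 66.6 FPKM (log2 -3.32) and Col1a1 from 1310 ± 170 to 414 ± 148 FPKM (log2 -1.72), and so did Col5a3 (log2 -1.20, named after its value was seen). The more abundant type V chains Col5a1 (log2 -1.32, limma adjusted p = 0.0708) and Col5a2 (log2 -0.91, adjusted p = 0.125) did not pass. Another type VI chain, Col6a3, did not pass either (log2 -0.64, limma adjusted p = 0.356). It read 36.5, 31.2 and 34.4 FPKM in wild type and 25.7, 7.84 and 46.6 FPKM in the libraries labelled knockout. With 20(OH)7DHC the library labelled knockout was thus the higher. Col6a3, Col5a1 and Col5a2 were also named after their values were seen.

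The sugar chains of these proteins are built by several enzyme groups. Of 20 chondroitin and dermatan sulfate enzymes, 14 were tested, 4 fell and 0 rose (median log2 -0.52). Chst11, which sulfates chondroitin, fell from 15.8 ± 0.827 to 5.08 ± 2.4 FPKM (log2 difference -1.54, limma adjusted p = 0.0303), and Papss1, which makes the sulfate donor, fell from 31.2 ± 0.152 to 12.3 ± 3.72 FPKM (log2 -1.31). The epimerases Dse (log2 -1.23) and Dsel (log2 -1.11), which turn chondroitin into dermatan, both fell. Of 9 enzymes of the linkage to the core protein, 7 were tested and 0 passed in limma, with 2 higher and 2 lower at an unadjusted p under 0.05. Among them B3gat3 read 24.5 ± 1.19 FPKM in wild type and 56.7 ± 19.6 FPKM in the libraries labelled knockout (log2 1.13, limma adjusted p = 0.0572), and B4galt7 read 28.7 ± 1.3 and 44.6 ± 8.84 FPKM (log2 0.60, adjusted p = 0.126). Of 9 keratan sulfate enzymes, 5 were tested and 0 passed in limma, with 0 at an unadjusted p under 0.05 (B4galt1 log2 -0.25, Fut8 log2 -0.42).

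Proteases that process these proteins or procollagen, of which 13 of 16 were tested, gave 4 that fell and 0 that rose (median log2 -0.61). Mmp3, a stromelysin that cleaves proteoglycan cores, fell from 56.7 ± 33.3 to 1.27 ± 1.01 FPKM (log2 difference -4.63, limma adjusted p = 0.0051). The gelatinases Mmp9 (log2 -3.85) and Mmp2 (log2 -1.49) fell, as did the collagenase Mmp13 (log2 -2.28, named after its value was seen). Of 15 receptors, 11 were tested, 3 fell and 0 rose (median log2 -0.76). Tlr2, a receptor for free biglycan, fell from 14.7 ± 1.29 to 1.45 ± 1.13 FPKM (log2 difference -2.77, limma adjusted p = 0.00965). Egfr, to which decorin binds, fell by 1.80 on the log2 scale, and Tlr4, another biglycan receptor, fell from 3.75 ± 0.685 to 0.337 ± 0.148 FPKM (log2 difference -1.83, limma adjusted p = 0.0222, named after its value was seen).

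Among 14 growth factor partners, 10 were tested, 1 rose and 1 fell (median log2 0.36), against 2.43% of all rows higher and 6.64% lower. With 10 genes tested, 1 call in each direction does not set this list apart from all rows. Pdgfa, a growth factor for fibroblasts, read 39.5, 43.1 and 40.3 FPKM in wild type and 200, 158 and 111 FPKM in the libraries labelled knockout. The groups did not overlap, and Pdgfa rose (log2 1.87, limma adjusted p = 0.0171). Igf1, a growth factor made by connective tissue, fell from 21.5 ± 2.88 to 6.06 ± 1.5 FPKM (log2 difference -1.69, limma adjusted p = 0.0156). Of 8 other members of the small leucine-rich family, 4 were tested and 0 passed in limma, with 1 lower at an unadjusted p under 0.05. Among these, Tsku (tsukushi) read 97.0 ± 4.19 and 63.1 ± 17.4 FPKM (log2 -0.65, limma adjusted p = 0.126), and Kera and Epyc were listed at 0. Of 26 large and cell-surface proteoglycans, 13 were tested, 3 fell and 0 rose (median log2 -0.27), namely agrin (Agrn, log2 -2.09) and the syndecans Sdc4 (log2 -1.77) and Sdc1 (log2 -1.05).

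The counts in the lists depended on which libraries were kept, in an alternative chosen after seeing the data. Without the 20(OH)7DHC library labelled knockout, 6 collagen partners, 5 chondroitin and dermatan sulfate enzymes, 4 proteases, 2 receptors and 3 large or cell-surface proteoglycans fell. Without the wild type 20(OH)7DHC library instead, the numbers were 5, 5, 4, 2 and 3, so the change is not particular to the library labelled knockout. In the fit without the latter, Col5a3 (limma adjusted p = 0.0629), Mmp13 (0.0916), Egfr (0.064) and Agrn (0.068) no longer passed, and B3gat3 passed as higher (0.0374). Col5a1 (limma adjusted p = 0.0493) and Col5a2 (0.0433) passed there as lower. Without any 1 of the 4 libraries of 20(OH)L3 or 20(OH)Cholesterol, 2 collagen partners and 0 of the chondroitin and dermatan sulfate enzymes, receptors and growth factor partners passed. The proteases then gave 0 to 2 that fell, and the large and cell-surface proteoglycans and the fibroblast markers 0 to 1 each. Without the wild type 20(OH)7DHC library 6 fibroblast markers fell, and 6 without the one labelled knockout. The calls over all rows moved in the same way. They were 186, 198, 107 and 89 lower without 1 of the 4 libraries of 20(OH)L3 or 20(OH)Cholesterol, against 842 in the full fit. Without the 20(OH)7DHC library labelled knockout they were 1124 lower and 1440 higher. The list counts are therefore not particular to the lists. Fabp4 (limma adjusted p = 0.0636) and Sox9 (0.0685), markers of other cell types described next, did not pass without the 20(OH)7DHC library labelled knockout. Mcam (0.0296) and Sfn (0.037) did.

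**Figure D5:**
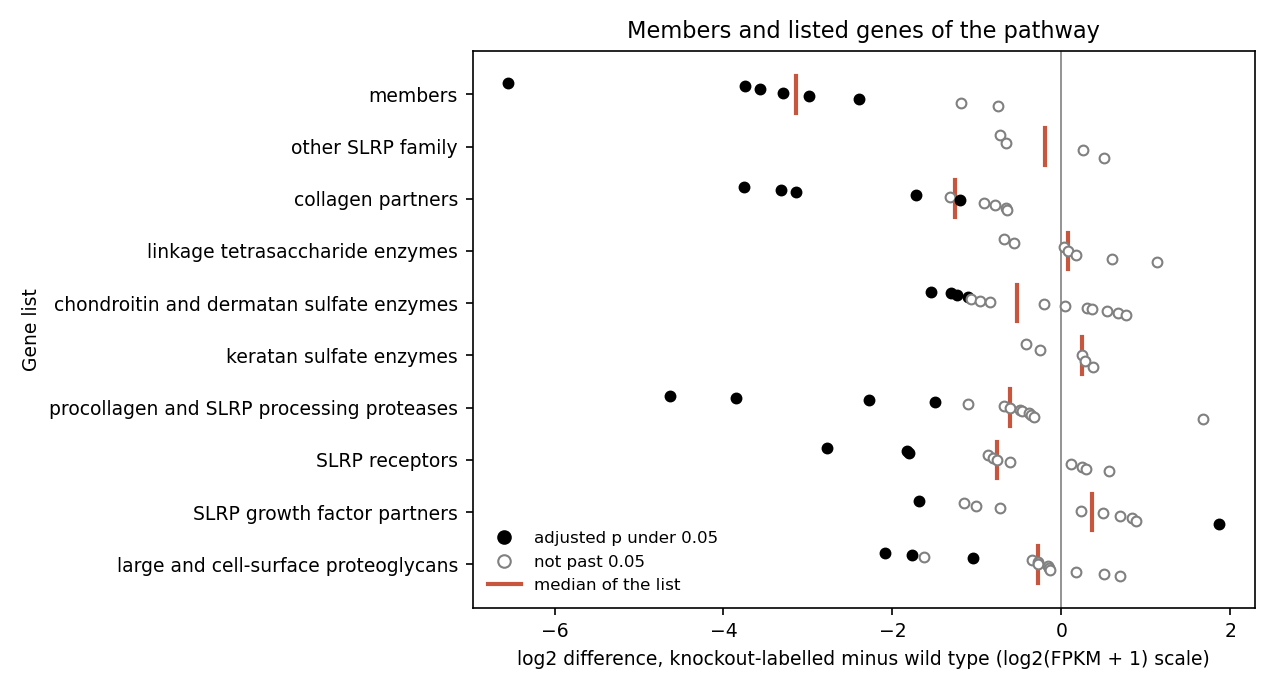
Log2 difference, knockout-labelled minus wild type, of each tested gene in the members and the 9 partner lists, with the genes past the threshold filled. The collagen partners reach -3.76 and the members -6.55, while the lists of linkage and keratan sulfate enzymes hold no gene past the threshold.

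Markers of dermal fibroblasts and of other cell types were set beside these results. Of 15 fibroblast markers, 11 were tested, 4 fell (Dpt, Twist2, and Col1a2 and Col1a1, which the collagen list also holds) and 0 rose. At an unadjusted limma p under 0.05, 8 were lower and 0 higher, against 33.4% of all rows in either direction. The summed level of the markers was 10455 to 10842 FPKM in wild type and 7979 to 10966 FPKM in the libraries labelled knockout. Vim (3095 ± 250 and 4414 ± 521 FPKM) and Fbln2 (2694 ± 163 and 2925 ± 537 FPKM) make up much of that sum, and neither passed. The sums of pericyte and smooth muscle markers (21.8 to 25.2 against 54.7 to 120 FPKM) and of adipocyte markers (1.76 to 3.57 against 13.8 to 35.3 FPKM) did not overlap, but each rested on 1 gene, Mcam (log2 2.41) and Fabp4 (log2 2.87). Without Mcam the former sums were 10.4 to 12.1 against 10.3 to 12.4 FPKM. The other tested pericyte and smooth muscle markers were Notch3 (log2 difference -0.88), Cspg4 (-0.13) and Myh11 (0.55), none past the threshold. Without Fabp4 the adipocyte sums were 0 to 0.157 against 0 to 0.29 FPKM. The adipocyte markers Cfd, Cidec and Lep were listed at 0 in all libraries. Keratinocyte markers summed to 31.1 to 40.6 FPKM against 39.5 to 189 FPKM, and without Sfn (log2 2.83) to 26.2 to 34.7 against 21.2 to 72.7 FPKM. The other tested keratinocyte markers, Perp (log2 difference -0.09) and Krt10 (0.54), did not pass. Cartilage, tendon and bone markers summed to 16.5 to 19.2 against 21 to 29.3 FPKM, and without Sox9 (log2 1.08) to 12.7 to 15.4 against 11.5 to 18.4 FPKM, with Runx2 at -0.18 and Scx at -0.06. Endothelial (1.56 to 2.9 against 2.0 to 4.56 FPKM), macrophage (10.5 to 14.2 against 7.83 to 15.6), melanocyte (1.1 to 1.61 against 0.134 to 1.79), Schwann (5.45 to 7.51 against 3.89 to 17.5) and skeletal muscle markers (0.81 to 3.0 against 0.456 to 3.37) overlapped. Their part in the results was not tested, and in bulk libraries fewer cells of a type and less RNA per cell cannot be told apart.

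The rows whose profiles over the 6 libraries lay closest to that of biglycan were Irf2, Thsd7a, Ctns, Sumf1 and Polm, at distances of 0.09, 0.21, 0.22, 0.22 and 0.24 between centred log2 profiles, among 8286 rows that average 5 FPKM or more. Those closest to decorin, a reference chosen after its values were seen, were Irf7 (0.85), Ifi44 (0.96), Oasl2 (0.98), Ifit1 (1.1) and H2-Q4 (1.37). Irf7 read 288, 392 and 322 FPKM in wild type and 4.2, 1.52 and 1.96 FPKM in the libraries labelled knockout. The other members that average 5 FPKM or more were Lum, Aspn, Prelp and Bgn, and the rest were not compared. Their distances to Dcn were 3.72 for Lum (rank 76 of the rows compared), 3.95 for Aspn (rank 88), 4.54 for Prelp (rank 131) and 7.22 for Bgn (rank 1107). With a pseudocount of 1, a gene of low wild type level cannot fall as far as Dcn, so these distances also depend on abundance. By ratio of the means, wild type stood 89.3-fold higher for Dcn, 370-fold for Lum, 14.1-fold for Aspn, 14.3-fold for Prelp and 1.69-fold for Bgn.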

How the data were processed

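Messenger RNA was measured in 6 libraries, grouped by the genotype and sterol in the labels. Genotypes follow the labels, and a planned test of them is not reported. The authors deposited FPKM per gene, per the file headers, as 1 table with 46958 rows. The submitters' processing notes name the aligner STAR 2.5.4b, then Cufflinks 2.2.1 with Cuffdiff, and GRCm38. For annotation, strand and filters, nothing is given in the sources used here. Rows that merge several symbols (1061) stayed out of the lists. Where the design text of the series gives other treatments, the sample labels were followed.

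Depth was estimated from low values of single-transcript genes of 900 to 4000 nt, where 96.8% to 98.0% per library were whole multiples of the worth of 1 fragment within 0.05, against 10% by chance. These fragments describe depth and the lowest members only. Coordinates and lengths came from GENCODE M21.

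From the deposited FPKM, log2(FPKM + 1) was fitted for rows that average 1 FPKM or more in limma 3.58.1 (R 4.3.3), with genotype and sterol as additive terms, an intensity trend, 2-sided tests and Benjamini-Hochberg adjustment over 12673 rows at 0.05. This left 2 residual degrees of freedom, to which the prior added 3.04. Fold changes on this scale are understated for low genes. Differences within a sterol have no replicate and no test. The sterol term pairs the genotypes by their shared treatment, so leaving out either library of a sterol, or both, gives the same genotype difference.

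The members and lists were chosen with earlier results of these data known, so counts over them are descriptions. All 10 members are named. From each of 19 lists, 10 of them of markers, up to 4 genes per direction were named that passed and averaged 5 FPKM or more, by the size of the change, or the 2 most abundant where none passed. Some of the marker genes so named are given by list only. Alternatives were other pseudocounts, filters, scalings and priors, no sterol or genotype term, each library or sterol left out, and removal of a trend with transcript length.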

Additional observations from a re-analysis of the deposited data

Results flagged for a closer look

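Among the members and the partner genes named by rule, the difference between genotypes changed sign with the sterol in Ecm2 and Fut8. It also did so in 4 named marker genes, Cd68, Csf1r, S100b and Tnnt3, and listed genes outside the rule are not covered here. In neither Ecm2 nor Fut8 was the difference between sterols tested, since each side is 1 library. For Ecm2 the log2 difference, knockout-labelled minus wild type, was -0.55 with 20(OH)L3, -0.13 with 20(OH)Cholesterol and 0.05 with 20(OH)7DHC, all at levels under 0.5 FPKM. For Fut8, a fucosyltransferase that acts on N-linked sugar chains, the log2 differences were -0.59, -0.79 and 0.12, from 12.2, 11.5 and 11.0 FPKM in wild type and 7.79, 6.2 and 12.0 FPKM in the libraries labelled knockout.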

How the results depend on the processing

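The 8 tested members were negative under every alternative that gave a value, and Dcn and Aspn passed in all 21. Over all single members and alternatives, 152 results kept their side of the threshold, 11 no longer passed, and 2, both for Podn, newly passed. With 1 library left out, 3 to 6 members fell, 6 to 1440 rows were higher and 89 to 1124 lower, and the sterol contrasts, in the order given above, called 0 to 14, 0 to 21 and 0 to 8 rows. Main counts were 308 rows higher and 842 lower. Among the 11529 single-gene rows of known length, 346 were higher with the length trend kept and 488 with it removed. Rows higher numbered 25 without a filter (242 lower), 191 at a minimum of 0.1 FPKM, 576 after quantile normalization and 735 with no replicate block, that is, no pairing by sterol (1336 lower, 7 members). Without both libraries of a sterol, 35 higher and 308 lower rows were called (20(OH)L3 left out), 19 and 203 (20(OH)Cholesterol) and 1835 and 1431 (20(OH)7DHC). The cause of these moves was not tested. For 20(OH)L3 against 20(OH)Cholesterol, 1 row was called at a pseudocount of 0.1, 2 at 0.01 and 2 with a robust prior. For 20(OH)L3 against 20(OH)7DHC, 1 row was called at 0.01 and 0 without a filter. For 20(OH)Cholesterol against 20(OH)7DHC, 3 rows were called at 0.1, 0 at 0.01, 0 without a filter and 3 at a minimum of 5 FPKM. No member passed in any of these sterol contrasts. Without a filter, 5 of 10 members fell, against 1.03% of rows. Quantile scaling moved the median of all rows by 0.08. Depth limits Lum, Ogn, Omd and Ecm2, which rest on a few fragments in the libraries labelled knockout.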
